A study of Mus musculus with 2 samples.

Results

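The 37 genes described here encode the vacuolar proton pump, its accessory subunits, the membrane proteins and hydrolases of the lysosome, and 2 transcription factors, Tfeb and Tfe3. The list was set by gene name, with earlier results of these data known, out of 32285 genes in the count matrices, and all 37 had UMIs in every group compared. Of the 37 genes, 15 belong to the pump and 20 are other lysosomal genes. They were measured in melanocytes taken from 2 droplet 3′ scRNA-seq libraries, defined as cells with at least 1 UMI of Dct and fewer than 3 UMIs of Krt10 and Krt14 together. A UMI is the molecular tag that marks 1 captured transcript. Cells also needed less than 5% mitochondrial UMIs and more than 10000 UMIs at early anagen or more than 5000 UMIs in the bulb. This kept 2785 of 11010 barcodes in the early-anagen library and 3734 of 4327 in the bulb library.

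Both libraries were made from Dct-rtTA; tetO-H2B-GFP mice on a doxycycline diet for 4 days, in which the Dct promoter drives rtTA, so that nuclear GFP marks cells in which that promoter is active. GFP+ cells were sorted, and the cells of 4 mice were combined in each library. The early-anagen cells, melanocyte stem cells (McSCs) labelled as activated, came from back skin of mice depilated at 8 weeks and killed 4 days later, were freed with trypsin and were prepared with the version 3 kit. The bulb cells, labelled as mature melanocytes, came from microdissected hair bulbs of mice at 5 weeks whose follicles were in full anagen, were freed with collagenase and dispase and were prepared with the version 2 kit. Age, depilation, dissociation, kit and depth therefore changed together with the condition and cannot be told apart from it. The kept cells held a median of 24528 UMIs at early anagen and 14286.5 in the bulb, and none of them shared a barcode between the libraries. With 1 library per condition and cells that are not replicates, no test between conditions was possible. Intervals below are 95% intervals of the counting error only.

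Markers of cell types were summed over the kept cells. Dct, Krt10 and Krt14 are among them and also set the cell limits, so their levels were partly fixed by that choice. The 8 melanocyte markers summed to 24639 CPM (UMIs of a gene per 1000000 UMIs of the group) at early anagen and 67431 CPM in the bulb, and none was at 0. Kit, at 486 and 108 CPM, and Mitf, at 446 and 330 CPM, were lower in the bulb, and the other melanocyte markers were higher. The 5 keratinocyte markers summed to 22.0 and 16.5 CPM, the 4 fibroblast markers to 0.264 and 0.376 CPM, and the 2 endothelial markers to 0.106 and 0.0179 CPM. Krt10 made up most of the keratinocyte sum, at 13.1 CPM at early anagen and 16.2 CPM in the bulb. Macrophages and dendritic cells are rich in lysosomes, and their 7 markers summed to 17.9 CPM at early anagen, with Aif1 at 0, and to 7.71 CPM in the bulb, with Ptprc, Cd207 and Aif1 at 0. The sum was mostly Cd74 at early anagen, at 14.2 CPM against 0.412 CPM in the bulb, whereas Lyz2 went the other way, at 2.14 and 7.09 CPM. Their part in the results was not tested.

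The vacuolar proton pump (V-ATPase) has a membrane sector, V0, through which protons pass, and a cytosolic sector, V1, which hydrolyses ATP and turns the pump. It acidifies lysosomes, and the acid activates the hydrolases that degrade proteins, glycans and lipids. In pigment cells the melanosome is a lysosome-related organelle that shares cargo, membrane proteins and the pump with lysosomes, and its pH is known to affect the activity of tyrosinase, which makes melanin. TFEB and TFE3 are relatives of MITF, the master regulator of the melanocyte lineage. They are known to switch on lysosomal genes through an E-box called the CLEAR element, which sits near the start of many of those genes.

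The CLEAR letters TCACGTGA were looked for in the promoters of the genes, taken from RefSeq on GRCm38.p6 as 250 bases before to 50 bases after each start. A promoter entry was matched for 31 of the 37 genes, with 38 entries in all, since some genes have several starts. The genes without an entry were Atp6v1b2, Atp6v1c1, Atp6v1g1, Atp6v1h, Npc1 and Ctsb. TCACGTGA reads the same on both strands and was present in 7 genes, or 18.4% of the entries, against 0.974% of 32851 promoters of the same length. The shorter CACGTG, which lies within TCACGTGA, was present in 11 genes, or 28.9% of the entries, against 7.15% of all. CATGTG, searched on both strands, was present in 8 genes, or 21.1% of the entries, against 14.2% of all. Since the element is known from lysosomal genes and the list was chosen by name, a higher share than over all promoters was likely from that choice. Such a match is a description of the letters and not of a bound site. The stretches that hold TCACGTGA are shown because they are the places in these promoters that match the element just described, with the CLEAR letters in capitals, on the strand of the gene from 5′ to 3′.
Atp6v0d1: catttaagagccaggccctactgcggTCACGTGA
Atp6v0e: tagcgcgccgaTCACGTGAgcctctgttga
Atp6v1a: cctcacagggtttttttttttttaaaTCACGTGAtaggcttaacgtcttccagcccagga
Mcoln1: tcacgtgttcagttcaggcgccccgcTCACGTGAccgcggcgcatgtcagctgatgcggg
Ctsa, upstream copy: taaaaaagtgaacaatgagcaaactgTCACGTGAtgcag
Ctsa, downstream copy: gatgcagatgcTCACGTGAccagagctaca
Ctsd: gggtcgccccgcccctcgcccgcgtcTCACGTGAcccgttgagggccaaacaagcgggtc
Gla, distal copy: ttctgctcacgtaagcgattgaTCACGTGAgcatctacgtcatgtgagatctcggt
Gla, proximal copy: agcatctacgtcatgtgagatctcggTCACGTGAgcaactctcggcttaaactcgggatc

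On GRCm38, the build of the files, these stretches lie at chr8:105566061-105566094 on the minus strand (Atp6v0d1), chr17:26676387-26676416 on the plus strand (Atp6v0e) and chr16:44139358-44139417 on the minus strand (Atp6v1a). The Mcoln1 stretch is chr8:3500447-3500506 on the plus strand. The Ctsa copies are at chr2:164833734-164833772 and chr2:164833766-164833795 on the plus strand. The Ctsd stretch is chr7:142387893-142387952 on the minus strand, and the Gla copies are at chrX:134601200-134601255 and chrX:134601167-134601226 on the minus strand. The first base of the letters was at position -132 for Atp6v1a, -99 for Ctsd, -46 for Mcoln1, -13 and 5 for Ctsa, -4 for Atp6v0d1 and 3 for Atp6v0e, where 1 is the first transcribed base, and the Gla copies began at -228 and -195. Copies that begin after the start lie in transcribed sequence. The 7 genes with these letters had a median log2 ratio of 1.92 for bulb over early anagen, with 6 of them at least 1.5-fold higher. The 24 matched genes without them had a median of 1.14, with 19 at least 1.5-fold higher, and the ranges of both sets overlapped. Of all genes with a mean of at least 10 CPM, 27% were that much higher. These ratios are not adjusted for transcript length. Between early-anagen cells with and without an Oca2 UMI, compared below, 1 of the 7 and 7 of the 24 were at least 1.5-fold higher. Their medians there were 0.47 and 0.31, and 5.28% of all genes were that much higher. Atp6v1a, which holds the letters, was at almost the same level in both libraries.

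To ask how far the lysosomal system differs between McSCs that have just been activated and mature pigment-producing cells, UMIs were summed over the cells of each library and scaled to CPM. Levels are not divided by transcript length, because a 3′ method counts each transcript once. The 37 genes together took 8974 CPM at early anagen and 27591 CPM in the bulb, a 3.07-fold higher level. In the bulb 29 of the 37 genes were at least 1.5-fold higher and 1, Tfe3, was at least 1.5-fold lower. Among the 7298 genes with a mean of at least 10 CPM, 27% were that much higher and 36% that much lower. The median log2 ratio of the 37 genes was 1.26, with a range of -0.60 to 3.51, against -0.11 over all 7298 genes, whose middle 50% lay between -1.04 and 0.66. The ratio itself was above 0 in 35 of the 37 genes and in 46.6% of all 7298. The counting interval lay above 0 for 35 genes and below 0 for Npc1 and Tfe3. The share of all genes with an interval clear of 0 was not counted.

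**Figure D1:**
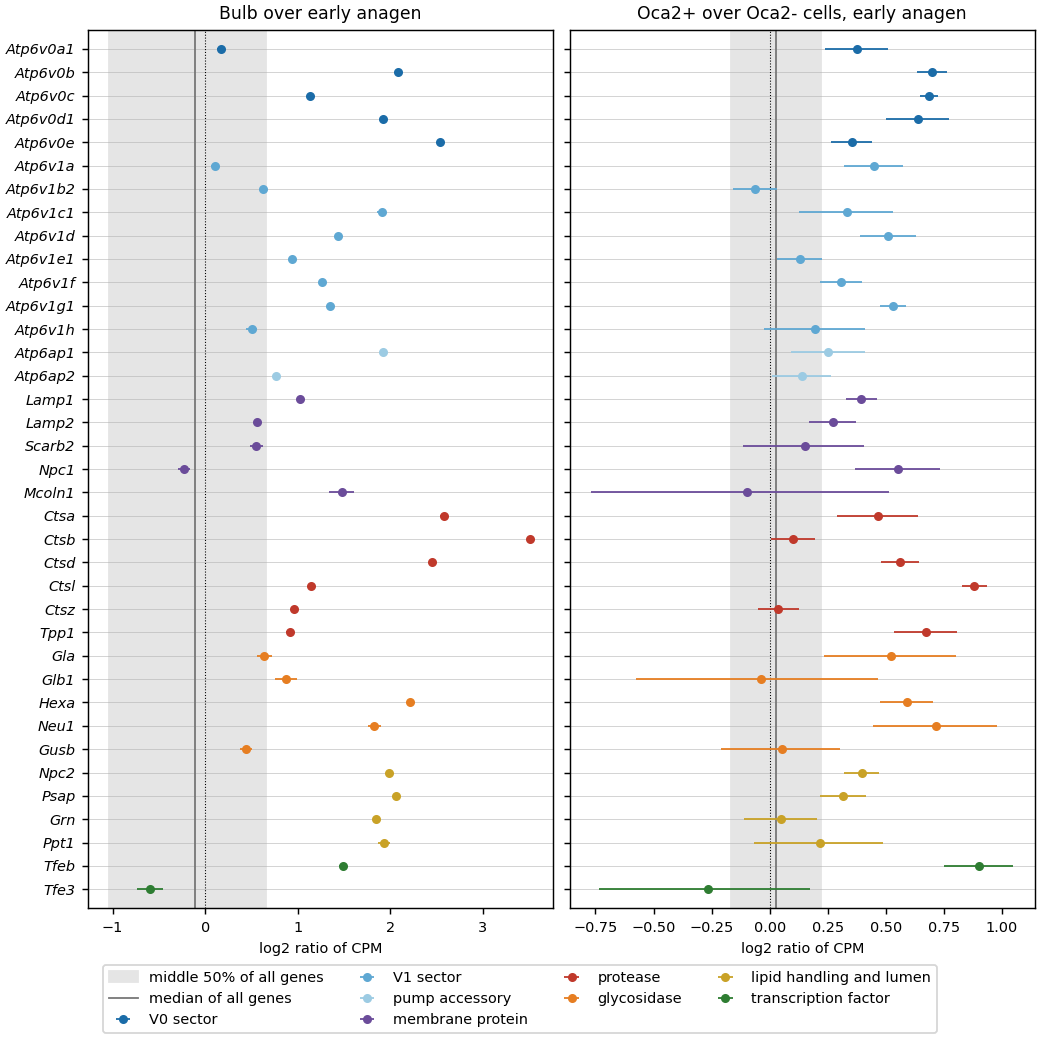
The log2 ratio of CPM (x axis) of each of the 37 genes (y axis) for bulb over early anagen on the left and for Oca2+ over Oca2- cells of the early-anagen library on the right, with points coloured by role, bars for the 95% counting interval, a grey band for the middle 50% of all genes and a line for their median. On the left most points lie to the right of the band, and Npc1 and Tfe3 lie to the left of 0; on the right the scale is narrower, and Tfeb and Ctsl lie farthest to the right.

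The libraries differed in their balance of long and short transcripts. Over 7208 genes with a protein-coding transcript in GENCODE M21, the log2 ratio of bulb over early anagen fell with the length of the longest transcript. With the genes divided into 10 bins of length, its median was 0.20 in the bin of shortest transcripts and -1.15 in the longest, and Spearman's correlation across genes, which are not independent, was -0.35. The 37 genes had a median length of 2396 bases, against 2975 for all. When the median of the genes in the same bin was subtracted, an alternative chosen after this trend had been seen, the median of the 37 genes was 1.17, 36 of 37 were above 0 and 30 were at least 1.5-fold higher. After the same subtraction 28.6% of all genes were at least 1.5-fold higher and 28.9% that much lower. Within the early-anagen library no such trend was present, with a correlation of 0.02 for Oca2+ over Oca2- cells, and medians of 0.01 in the shortest and the longest bin.

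**Figure D2:**
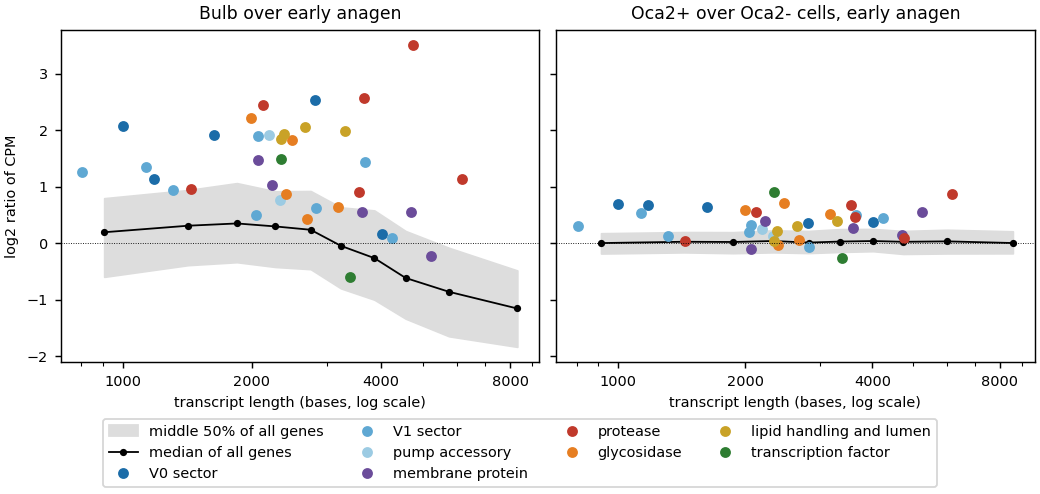
The log2 ratio of CPM (y axis) against the length of the longest protein-coding transcript in bases (x axis, log scale) for bulb over early anagen on the left and Oca2+ over Oca2- cells on the right, where the black line and grey band are the median and the middle 50% of all genes per bin of length and coloured points are the 37 genes by role. The black line falls from 0.20 to -1.15 on the left and is flat on the right, and all but 1 of the points on the left, Tfe3, lie above the line.

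All 5 genes of the V0 sector had higher levels in the bulb, and 4 of them by at least 1.5-fold. Together they took 2564 CPM at early anagen and 7865 CPM in the bulb, a log2 ratio of 1.62. The proteolipid ring that carries the protons is encoded by Atp6v0c and Atp6v0b. Atp6v0c (chr17:24163866-24169702) was the most abundant of the 37 genes at early anagen, at 1497 CPM, and reached 3290 CPM in the bulb, a log2 ratio of 1.14. Atp6v0b (chr4:117884326-117887333) was at 481 CPM and 2035 CPM, a log2 ratio of 2.08. Atp6v0e (chr17:26663231-26699647), a small membrane subunit, differed most in this sector, with 330 CPM at early anagen and 1921 CPM in the bulb and a log2 ratio of 2.54. Atp6v0d1, which joins the sectors at the stalk, was at 124 and 470 CPM, a log2 ratio of 1.92. The exception was Atp6v0a1, an isoform of the large subunit that forms the proton path beside the ring. It was at 131 CPM at early anagen and 148 CPM in the bulb, a log2 ratio of 0.17 (interval 0.13 to 0.22), and at 0.43 relative to genes of like length.

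The V1 sector differed less. Its 8 genes summed to 2142 CPM at early anagen and 4712 CPM in the bulb, which was 1.14 on the log2 scale (1.13 to 1.15), below the 1.62 (1.61 to 1.62) of the V0 sector. Of the 8 genes, 6 were at least 1.5-fold higher. The stalk subunits Atp6v1c1, at 69.0 and 259 CPM, and Atp6v1d, at 170 and 460 CPM, had the largest ratios, 1.91 and 1.43. Atp6v1g1, a peripheral stalk subunit and the most abundant gene of the sector, was at 758 CPM at early anagen and 1936 CPM in the bulb, a log2 ratio of 1.35. The catalytic head is built of subunits A and B. Atp6v1a, the catalytic subunit, was at 151 and 162 CPM, a log2 ratio of 0.10 (0.06 to 0.14) that turned to -0.06 with a total free of mitochondrial, ribosomal protein and pigmentation genes, and its non-catalytic partner Atp6v1b2 was at 332 and 511 CPM, a ratio of 0.62. Both head subunits thus lay at the low end of the sector, next to Atp6v1h, the regulatory subunit, at 59.1 and 83.8 CPM and a ratio of 0.50. Atp6v1a has a long transcript of 4234 bases, and relative to genes of like length its ratio was 0.71. The remaining subunits, Atp6v1e1 and Atp6v1f, had log2 ratios of 0.94 and 1.26. The accessory proteins needed for assembly of the pump, Atp6ap1 and Atp6ap2, were also higher in the bulb, at 104 against 395 CPM and at 178 against 304 CPM, with log2 ratios of 1.92 and 0.77. Relative to genes of like length Atp6v1b2 and Atp6ap2 fell short of 1.5-fold, at 0.38 and 0.47.

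The proteases of the lysosome, most of them cathepsins, had the largest log2 ratio of summed levels among the roles, 2.14 (2.13 to 2.15). Their median of 1.80 was below the 1.92 of V0 and the 1.96 of the lipid and lumenal genes. Relative to genes of like length the proteases had the highest median of these roles, at 2.07. The lipid and lumenal genes, at 1.73, stayed above V0, at 1.61. The correction takes the longest transcript of each gene, which was 6168 bases for Ctsl. The effect of that choice on the protease median was not tested. All 6 genes of the protease group were at least 1.5-fold higher in the bulb, and their sum was 1841 CPM at early anagen and 8113 CPM in the bulb. Ctsb (chr14:63122462-63145923), a cysteine protease, was at 315 CPM (311 to 319) at early anagen and 3582 CPM in the bulb, an 11.4-fold higher level and the largest ratio among the 37 genes. In the bulb it was the most abundant of the 37, above Atp6v0c, and made up a large part of the protease sum. Ctsa, the protective protein that keeps galactosidase and neuraminidase stable, was at 75.6 and 451 CPM, a log2 ratio of 2.58. Ctsd, the main aspartic protease, was at 314 and 1710 CPM, a ratio of 2.44. Ctsl, at 627 and 1388 CPM, was the most abundant protease at early anagen and had a smaller ratio of 1.15, with Ctsz at 0.96 and Tpp1 at 0.91. Thus the protease with the most transcripts differed between the groups, Ctsl at early anagen and Ctsb in the bulb.

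The 4 genes counted under lipid handling and lumenal cofactors had similar ratios. Npc2, which takes cholesterol out of the lumen, was at 415 and 1643 CPM. Psap, the precursor of the saposins that help degrade sphingolipids, was at 252 and 1055 CPM. Grn, the precursor of the granulins, was at 117 and 419 CPM, and Ppt1, which removes fatty acids from proteins, at 33.3 and 127 CPM. Their log2 ratios lay between 1.85 and 2.06, and between 1.55 and 2.03 relative to genes of like length. Npc1, the partner of Npc2, was counted with the membrane proteins and had a ratio of -0.23.

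The glycosidases were more spread, and 4 of 5 were at least 1.5-fold higher. Hexa, the alpha chain of hexosaminidase, was at 167 and 777 CPM, a log2 ratio of 2.22, and made up most of the summed level of this group. Neu1, the lysosomal sialidase, was at 29.3 and 104 CPM, a ratio of 1.83. Glb1, Gla and Gusb, which remove galactose or glucuronic acid residues, were low in both libraries, and their ratios were 0.87, 0.64 and 0.44. Relative to genes of like length Glb1 was at 0.57, just short of 1.5-fold.

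Of the 5 membrane proteins of the lysosome, Lamp1 and Mcoln1 were at least 1.5-fold higher in the bulb. The median was 0.56, lower than that of the glycosidases, 0.87, but relative to genes of like length it was 0.82, above their 0.68, and all 5 genes then passed 1.5-fold. Lamp1, the major glycoprotein that lines the membrane, was at 577 and 1176 CPM, a log2 ratio of 1.03. Mcoln1, the calcium channel of the lysosome, was the rarest member at early anagen, at 8.44 CPM, and reached 23.4 CPM in the bulb, a ratio of 1.47. Lamp2 and Scarb2, a receptor that brings glucocerebrosidase to lysosomes, had ratios of 0.56 and 0.55, which were 0.82 and 1.16 relative to genes of like length and 0.87 and 0.86 with TMM scaling. Npc1, the membrane partner of Npc2 in cholesterol export, was at 65.2 CPM at early anagen and 55.6 CPM in the bulb, a log2 ratio of -0.23 (-0.29 to -0.16). Its transcript is 5224 bases long, and relative to genes of like length its ratio was 0.63, so its direction depended on that correction, and it also turned positive with TMM scaling.

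The factors moved in opposite directions. Tfeb (chr17:47737030-47792419) was at 93.7 CPM at early anagen and 263 CPM in the bulb, a log2 ratio of 1.49 (1.45 to 1.53). Tfe3 was at 17.0 and 11.2 CPM, a log2 ratio of -0.60 (-0.74 to -0.46), or -0.56 relative to genes of like length, just short of 1.5-fold. Mitf, their relative, was at 446 and 330 CPM, a ratio of -0.44 that turned to 0.17 relative to genes of like length. At early anagen Mitf therefore had more transcripts than Tfeb and Tfe3 together, and in the bulb the gap between Mitf and Tfeb was smaller. Tfec, the fourth of the family, had 0 UMIs in both libraries. When every cell was thinned to 5000 UMIs, at least 1 Tfeb UMI was present in 32.3% of early-anagen cells (30.5 to 34.1) and 69.8% of bulb cells (68.3 to 71.3), against 70.2% and 93.0% without thinning. In keratin-positive barcodes of the early-anagen library the thinned share was 3.85% of 52 (0.469 to 13.2), and 21.2% without thinning.

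**Figure D3:**
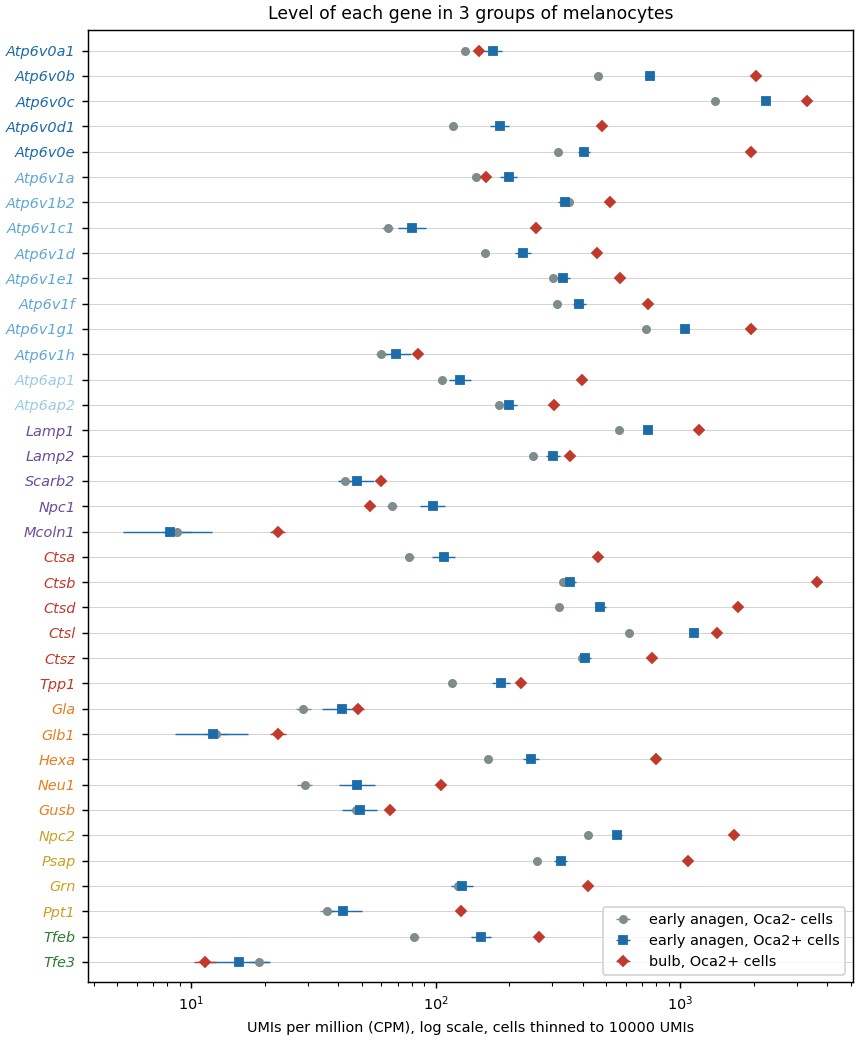
The level of each of the 37 genes in CPM (x axis, log scale) in early-anagen Oca2- cells (grey circles), early-anagen Oca2+ cells (blue squares) and bulb Oca2+ cells (red diamonds), all thinned to 10000 UMIs, with bars for the 95% counting interval and gene names coloured by role as in the plot of log2 ratios. The red diamonds are farthest to the right for most genes, with Ctsb going from 331 and 354 CPM to 3635 CPM, whereas Atp6v0a1, Atp6v1a and Npc1 have their highest point in early-anagen Oca2+ cells and Tfe3 in Oca2- cells. Levels are not adjusted for the trend with transcript length between the libraries.

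Cells were also compared within 1 library, prepared with the same kit from the same mice. Early-anagen McSCs were split by Oca2, a melanosomal channel gene that is not on the list. In the study Oca2 marks the most differentiated McSCs of early anagen, which by its lineage tracing can also return to an undifferentiated state. Each cell was first thinned to 10000 UMIs. A UMI of Oca2 was present in 292 cells, 10.5% (9.37 to 11.7), and absent in 2493. Before thinning these cells had held a median of 27409 and 24119 UMIs. At full depth 454 cells held an Oca2 UMI, so some cells counted as Oca2- had lost theirs in the thinning. A cell without an Oca2 UMI may still express the gene, since counts per cell are low.

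In the Oca2+ cells 8 of the 37 genes were at least 1.5-fold higher and none was that much lower, whereas 5.28% of 7427 genes were that much higher and 5.29% that much lower. The median log2 ratio of the 37 genes was 0.35, against 0.03 over all genes. The ratio itself was above 0 in 33 of the 37 genes and in 53.8% of all 7427. The counting interval lay above 0 for 27 genes and below 0 for none. The share of all genes with an interval clear of 0 was not counted. At a threshold of 2-fold no member was called, against 1.27% of all genes higher and 1.78% lower. Myeloid markers summed to 6.16 CPM in Oca2+ cells, with 5 of 7 at 0, and to 19.3 CPM in Oca2- cells. Cd74 was at 1.03 and 16.4 CPM in these groups and Lyz2 at 5.14 and 1.56 CPM, and their part in the comparison was not tested. Mki67 and Top2a are genes of dividing cells. Those holding either transcript made up 22.3% of Oca2+ cells (17.6 to 27.5) and 37.2% of Oca2- cells (35.3 to 39.2) after thinning, and 33.2% and 46.7% before it. Among cells without a UMI of either gene at full depth the median of the 37 genes was 0.31, against 0.05 over all genes, and 8 genes were at least 1.5-fold higher, as were 7.21% of all genes.

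Tfeb and Ctsl led this comparison. Tfeb had 82.0 CPM without and 153 CPM with Oca2, a log2 ratio of 0.90 (0.75 to 1.05), while Tfe3 was at 18.9 and 15.8 CPM, a ratio of -0.27 (-0.73 to 0.17). Mitf was at 413 and 676 CPM, a ratio of 0.71 (0.64 to 0.78). Thus Tfeb and Mitf were both higher in Oca2+ cells, and the interval of Tfe3 spanned 0. Ctsl (chr13:64359337-64370890) was at 620 and 1142 CPM, a log2 ratio of 0.88 (0.83 to 0.94). Ctsb, the gene with the largest ratio of bulb over early anagen, was at 331 and 354 CPM, a ratio of 0.10 (0.01 to 0.19) whose sign changed when cells were thinned with another seed, and in bulb Oca2+ cells it was at 3635 CPM. Almost all of the difference in Ctsb therefore lay between the libraries and not between the groups of early-anagen cells.

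The summed level of the pump genes was 4831 CPM without Oca2 and 6754 CPM with it. The 3 pump genes past 1.5-fold all belonged to the V0 sector. Atp6v0b was at 463 and 752 CPM, Atp6v0c at 1393 and 2240 CPM, and Atp6v0d1 at 117 and 183 CPM, with log2 ratios of 0.70, 0.69 and 0.64. Of the 8 V1 genes none passed 1.5-fold. The V1 sum was 2121 and 2677 CPM, a log2 ratio of 0.34 (0.30 to 0.37). The V0 sum was 2423 and 3752 CPM, a ratio of 0.63 (0.60 to 0.66), and Atp6v0c made up most of it. These intervals do not cover the spread among cells. The ratios of single genes overlapped between the sectors, from 0.35 to 0.70 in V0 and from -0.06 to 0.53 in V1. Atp6v0a1 and Atp6v1a, whose CPM hardly differed between the libraries, had ratios of 0.38 and 0.45 here. Their levels in Oca2+ cells, 172 and 199 CPM, were above those in bulb Oca2+ cells, 150 and 161 CPM. That last comparison crosses the libraries and is not adjusted for transcript length. Relative to genes of like length, the ratios of bulb over all early-anagen cells were 0.43 and 0.71 for these genes.

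The other lysosomal genes took 3914 and 5309 CPM. Besides Ctsl, the hydrolases Neu1, Tpp1 and Hexa passed 1.5-fold, with log2 ratios of 0.72, 0.67 and 0.59. Neu1 was at 29.2 and 47.9 CPM, Tpp1 at 117 and 186 CPM, and Hexa at 164 and 247 CPM. Of the lipid handling and lumenal genes, which were all more than 3-fold higher in the bulb, none passed 1.5-fold, and their ratios lay between 0.05 and 0.40. Npc1 was at 66.5 and 97.6 CPM, a ratio of 0.55 (0.37 to 0.74). Its direction between the libraries depended on the correction for length and on the scaling. Mcoln1 and Glb1 were near 10 CPM in both groups, and their intervals, -0.77 to 0.52 and -0.58 to 0.46, left a difference in either direction undetectable at this depth.

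Per cell, the groups formed 3 steps. Of 10000 UMIs, a median of 46 were pump UMIs in early-anagen Oca2- cells (middle 50% of cells, 39 to 56), 67 in Oca2+ cells (57 to 78) and 134 in the 3140 bulb Oca2+ cells (121 to 146). For the other lysosomal genes the medians were 38 (30 to 46), 52 (44 to 61) and 141 (123 to 161). The Oca2- and Oca2+ cells overlapped widely, with ranges of 15 to 107 and 29 to 115 pump UMIs, and bulb cells ranged from 73 to 203. The step from Oca2- to Oca2+ cells was thus smaller than the step to the bulb, which also crosses the libraries.

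**Figure D4:**
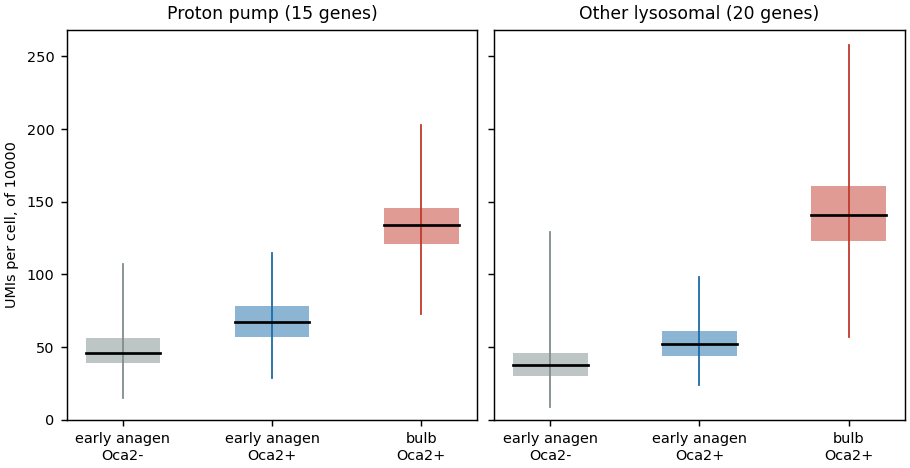
The number of UMIs per cell out of 10000 (y axis) of the 15 pump genes on the left and the 20 other lysosomal genes on the right in early-anagen Oca2-, early-anagen Oca2+ and bulb Oca2+ cells, where the black line is the median, the box the middle 50% of cells and the thin line the full range. The pump medians are 46, 67 and 134, and the boxes of the early-anagen groups lie below those of the bulb.

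The list was also followed along a graded measure. Within each library, cells thinned to 10000 UMIs were ordered by the summed UMIs of the pigmentation genes Tyr, Tyrp1, Pmel, Mlana, Slc24a5 and Slc45a2, none of which is on the list, and divided into 4 groups of equal size. At early anagen the pump genes took 3938, 4590, 5189 and 6416 CPM from the least to the most pigmented group, and the highest over the lowest group was 0.70 on the log2 scale (0.68 to 0.73). The other lysosomal genes took 3138, 3637, 4186 and 5281 CPM. In the bulb the slopes were flatter, with 12346, 13171, 13561 and 14008 CPM for the pump, a log2 ratio of 0.18 (0.17 to 0.19). For the other lysosomal genes of the bulb the values were 12411, 13906, 14486 and 15467 CPM. Both sets of genes were thus higher at each step in each library, and the lowest bulb group was above the highest early-anagen group. At early anagen an Oca2 UMI was present in 0.574% of cells of the lowest group and 33.9% of the highest. This order therefore shares cells with the Oca2 split and is no independent view. In each library the lowest group reached down to 0 pigmentation UMIs. Its median was 82 UMIs at early anagen and 461.5 in the bulb. No stricter Dct limit was set for these groups, and the part of cells with few pigmentation UMIs in the slopes was not tested. The share of cells with Mki67 or Top2a fell along the same order, from 44.5% to 18.1% at early anagen and from 6.93% to 0.122% in the bulb after thinning, and from 52.5% to 28.6% and 7.79% to 0.243% before it, and its part in these slopes was not tested.

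Within early anagen, 36 of the 37 genes had a ratio of the highest over the lowest group above the median of all genes, which was 0.01, and the median of the 37 was 0.55. Tfeb had the steepest slope, with 34.1, 65.7, 98.1 and 160 CPM over the 4 groups and a log2 ratio of 2.23 (2.02 to 2.43). Ctsl went from 368 to 1135 CPM, a ratio of 1.62, and Neu1 from 17.1 to 50.4 CPM, a ratio of 1.56. Atp6v0c and Atp6v0b had ratios of 1.08 and 1.03. The V0 sum went from 1815 to 3497 CPM and the V1 sum from 1869 to 2580 CPM, so that V1 was slightly above V0 in the least pigmented group and below it in the most pigmented. Ctsb was almost flat, at 311 and 356 CPM. In the bulb the median of the 37 genes was 0.21, against -0.09 for all genes, with 36 of 37 above it.

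**Figure D5:**
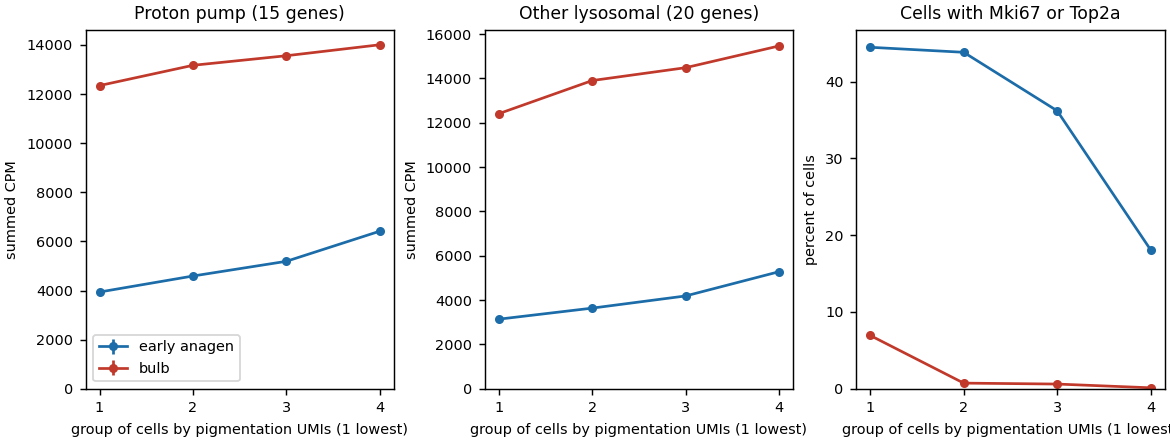
Summed CPM (y axis) of the 15 pump genes (left) and 20 other lysosomal genes (middle), with bars for the 95% counting interval that are smaller than the points, and the percentage of cells holding Mki67 or Top2a UMIs (right), in 4 equal groups of cells ordered by pigmentation UMIs (x axis, 1 the lowest) in the early-anagen library (blue) and the bulb library (red), all thinned to 10000 UMIs. Both lines of lysosomal genes climb from left to right, from 3938 to 6416 CPM for the pump at early anagen, while the share of cells with proliferation genes falls.

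Some of the genes varied strongly among cells of the same library. The Fano factor, the variance of UMIs over the mean, is 1 when only counting varies, and at 10000 UMIs its median over all genes of at least 10 CPM was 1.10 at early anagen and 1.04 in the bulb. At early anagen Ctsl stood apart with a Fano factor of 6.10, followed by Atp6v0c with 3.44. In the bulb Ctsb led with 5.10, followed by Ctsz with 3.47, Ctsd with 3.07 and Ctsl with 2.84. In each library 24 of the 37 genes were above the upper quartile of all genes. The Fano factor rises with the level of a gene, and the genes with the largest values were among the abundant ones.

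Since every cell has lysosomes, no cell type lacks these genes, and the level in other sorted cells was taken from keratin-positive barcodes of the early-anagen library, with at least 10 UMIs of Krt10 and Krt14 together and fewer than 3 of Dct. There were 52 such barcodes, with a median of 32776.5 UMIs, and in the bulb library 2, too few for a value. In the early-anagen melanocytes 26 of the 37 genes were at least 1.5-fold higher than in the keratin-positive barcodes and none was that much lower. Over 7716 genes 40.3% were that much higher and 19.3% that much lower, with a median log2 ratio of 0.38, against 0.90 for the 37 genes. Relative to genes of like length the median of the 37 was 0.50, with 18 at least 1.5-fold higher and Ctsd lower, against 25.3% and 26.9% of all genes. Some genes stood far above this. Hexa was at 167 CPM in melanocytes and 3.59 CPM in keratin-positive barcodes, a log2 ratio of 5.54 (4.50 to 6.86). Ctsz was at 391 CPM in melanocytes, a ratio of 4.29 (3.84 to 4.78), and Tfeb at 93.7 and 6.15 CPM, a ratio of 3.93 (3.12 to 4.88). In the 52 barcodes these levels rest on 7 UMIs of Hexa, 39 of Ctsz and 12 of Tfeb. Ctsd was lower in melanocytes, at 314 against 426 CPM, a log2 ratio of -0.44. Lamp2, Scarb2, Atp6v0e and Atp6v1h were at nearly the same level in both, with log2 ratios between -0.08 and -0.02.

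Genes of the same system outside the list were counted in the same way, over whole lists. Among the 7298 genes with a mean of at least 10 CPM, 27% were at least 1.5-fold higher and 36% that much lower. Of the 10 other pump isoforms 4 were at least 1.5-fold higher in the bulb, namely Atp6v0d2, Tcirg1, Atp6v0e2 and Atp6v1g2. The last was at only 1.98 and 3.22 CPM. Of the 4 isoforms with a mean of at least 10 CPM, 3 were higher and 0 lower. The 2 called lower, Atp6v0a4 and Atp6v1e2, had 7 and 0 UMIs at early anagen and 1 each in the bulb. In ratios a count of 0 was set to 3. In both libraries 5 isoforms were under 1 CPM. Atp6v0d2, an isoform of the stalk subunit known from osteoclasts and macrophages, was at 5.26 CPM at early anagen and 113 CPM in the bulb, a log2 ratio of 4.43 (4.28 to 4.58), above that of any of the 37 genes. Within early anagen its level was 4.53 CPM without Oca2 and 15.1 CPM with it, a ratio of 1.73 (1.20 to 2.25). The isoforms Tcirg1 and Atp6v0e2 had ratios of 1.24 and 1.14. Of 29 other hydrolases 14 were at least 1.5-fold higher, and 5 were that much lower, namely Arsb, Sgsh, Ids, Ctss and Ctsk, each with a mean under 10 CPM. All 14 higher ones were among the 20 with a mean of at least 10 CPM. The higher ones were led by the protease Ctsh, at 51.3 and 485 CPM, by Smpd1, the acid sphingomyelinase, at 36.4 and 242 CPM, and by the protease Ctsc, at 92.6 and 436 CPM. Of 14 other membrane proteins 11 were at least 1.5-fold higher and none was that much lower. Of the 11 with a mean of at least 10 CPM, 10 were higher. Among them Cd63, a tetraspanin of late endosomes and melanosomes, was at 2095 and 12132 CPM, Laptm4b at 14.2 and 128 CPM, and Tmem192 at 43.2 and 169 CPM.

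The genes that deliver hydrolases to lysosomes and sense nutrients there included both higher and lower ones. Of 8 sorting genes 5 were at least 1.5-fold higher and 3 that much lower, where over all genes 27% were higher and 36% lower. Igf2r, the large mannose 6-phosphate receptor, was at 88.0 and 24.0 CPM, a log2 ratio of -1.87, Gnptab, which starts the mannose 6-phosphate tag, at 16.4 and 5.35 CPM, a ratio of -1.61, and Sort1, the sorting receptor sortilin, at 53.9 and 19.9 CPM, a ratio of -1.44. These have long transcripts, and relative to genes of like length their ratios were -0.72, -0.75 and -0.29. Of 14 nutrient sensing genes 5, or 35.7%, were at least 1.5-fold higher and 4, or 28.6%, that much lower, against the same 27% and 36%. The lower ones were Fnip1, Fnip2, Rptor and Rragb. Of the 12 genes with a mean of at least 10 CPM, 5 were higher and 2 lower. Rptor was under that mean, and Rragb had 9 and 1 UMIs, with an interval that spanned 0. Relative to genes of like length Fnip2 and Rptor were at -0.14 and -0.45. Flcn, which acts on the GTPases that recruit mTORC1 and is known to restrain TFEB and TFE3, was at 11.6 and 43.1 CPM, a ratio of 1.89, while its partner Fnip1 was at 82.2 and 22.5 CPM, a ratio of -1.87, or -1.01 relative to genes of like length. Lamtor1, an anchor of that complex on the lysosome, was at 187 and 648 CPM, a ratio of 1.80.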

How the data were processed

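The authors demultiplexed, aligned to mm10/GRCm38 and counted the reads with Cell Ranger 6.0.1 and deposited UMI counts per gene and barcode for each library, without normalization. Cell limits on UMIs and mitochondrial share followed the study's methods. The genes, lists, comparisons and cut-offs were chosen with earlier results of these data known. Doublets were not called, and cells with the most UMIs were left out in an alternative.

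For each group of cells, the UMIs of all 32285 genes were added up and expressed as CPM. Levels have exact Poisson intervals, ratios the exact interval of 2 Poisson sums, and shares Clopper-Pearson intervals, all at 95% and for counting error only. Cells were thinned without replacement to 10000 or 5000 UMIs with a fixed seed, which left out 446 bulb cells at 10000. No test across samples was run, and a gene was called past 1.5-fold. All 37 genes are named. Of each other list the 3 with the largest absolute ratio among genes of at least 10 CPM are named, with Mitf and Tfec. Atp6v0a4, Atp6v1e2, Atp6v1g2, Arsb, Sgsh, Ids, Ctss, Ctsk, Fnip2, Rptor and Rragb were named after their values were seen. The calculation was tested on simulated data. Python 3.11.15, numpy 2.4.6, scipy 1.17.1, R 4.3.3 and edgeR 4.0.16 (TMM factors only) were used. Promoters were from RefSeq, gene positions and transcript lengths from GENCODE M21. The total of the kept cells was 75718468 UMIs at early anagen and 55883067 in the bulb.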

Additional observations from a re-analysis of the deposited data

How the results depend on the processing

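For bulb over early anagen, 22 to 33 of the 37 genes were called higher over 15 alternatives, against 16.4% to 37.7% of all genes. The median of the 37 genes, 1.26, stayed between 1.10 and 1.57. It was 1.22 without cells holding a keratin UMI, 1.22 without the 5% of cells with most UMIs, 1.20 with cells thinned to 10000 UMIs, 1.19 as the mean of each cell's CPM, 1.10 with a total free of mitochondrial, ribosomal protein and pigmentation genes, and 1.57 with TMM. It was 1.37 relative to the median of all genes and 1.17 relative to genes of like transcript length, both chosen after seeing the data. The count of lower genes, of Tfe3 alone, was 0 in place of 1 with under 10% mitochondrial UMIs, with TMM, at 2-fold and under both of the latter. TMM moved the median of all genes from -0.11 to 0.22 and the calls over all genes from 27.0% higher and 36.0% lower to 37.7% and 27.6%. The median of Oca2+ over Oca2- cells, 0.35, stayed between 0.30 and 0.43, with 6 to 12 genes higher except at 2-fold, where it was 0, and 1 lower gene, Mcoln1, without keratin UMIs. Over all genes 3.83% to 9.55% were higher in these alternatives, and 1.27% at 2-fold. No member changed sign in 5 of the 12 alternatives of the Oca2 comparison. The most that did was 5, namely Ctsb, Ctsz, Gusb, Ppt1 and Tfe3, with cells thinned to 5000 UMIs. The ratio of melanocytes over keratin-positive barcodes had a median of 0.50 with 1 lower gene, Ctsd, relative to genes of like length. Relative to the median of all genes that median was 0.52. The ratio of the most over the least pigmented bulb cells for the other lysosomal genes was 0.36 at 5000 UMIs, against 0.32. The cause of these shifts was not tested. The weight of each cell in the Oca2 comparison was not changed, and the keratin-positive comparison had no value in the bulb. No paired analysis was possible because the result comes from no test. Genes near 10 CPM, such as Mcoln1 and Glb1, are limited by depth in the 292 Oca2+ cells.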
